A study of Saccharomyces cerevisiae with 8 samples.

Results

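The cytosolic iron-sulfur assembly genes of budding yeast and RLI1, the gene of an essential protein that depends on them, were followed in cultures treated with a metal chelator or with DHPM-thiones. The 9 genes were taken by name from the deposited table of 7122 features: NAR1 (YNL240C), CFD1 (YIL003W), NBP35 (YGL091C), DRE2 (YKR071C), TAH18 (YPR048W), CIA1 (YDR267C), CIA2 (YHR122W), MET18 (YIL128W) and RLI1 (YDR091C). All 9 passed the filter on low counts. Transcripts were counted by RNA sequencing in 8 libraries, 2 biological replicates in each of 4 groups. The groups were clioquinol (CQ, a known metal chelator) at 0.8 µM, the DHPM-thione 10{3,3,1} at 20 µM, called active in the labels, the DHPM-thione 11 at 20 µM, called inactive, and the DMSO solvent. Cells of the W303 background lacking PDR1 and PDR3, genes of related activators of drug-efflux pump expression, were grown in galactose medium and treated in log phase for about 6 h, so the DMSO cultures carried the same deletions. Within the labels, the growth protocol conflicts with the sample characteristics, giving millimolar doses and wild-type cells where these give micromolar doses and the deletions, and the characteristics are followed here. PDR1 and PDR3 had 0 counts in all 8 libraries, which allows up to 0.251 CPM (TMM-scaled counts per 1e6 counts of a library) in the smallest, for counting error only.

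Iron-sulfur clusters are cofactors of iron and sulfur that carry electrons, bind substrates or hold a protein fold. Mitochondria make the first cluster precursors and export a sulfur-containing compound, from which the cytosolic machinery builds clusters for proteins of the cytosol and nucleus. In that machinery Tah18 passes electrons to Dre2, a scaffold of Cfd1 and Nbp35 assembles a cluster, Nar1 hands it on, and a targeting complex of Cia1, Cia2 and Met18 inserts it into client proteins. Rli1 (ABCE1 in human) is such a client, an ABC-type ATPase with clusters of its own that splits ribosomes after termination of translation.

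With CQ, the transcripts of 2 of the 9 genes fell, RLI1 and DRE2, and the other 7 did not pass the test. Among all 5696 tested features, 478 fell (8.39%). RLI1 was 3.34-fold and DRE2 2.86-fold lower with CQ than with DMSO. Neither thione moved any of the 9 past the threshold, and the active and the inactive thione were not told apart in any of them. RLI1 and DRE2 were also lower with CQ than with either thione.

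Sequences around RLI1 and DRE2, the genes that fell together, are shown first, from the RefSeq genome R64, which corresponds to the sacCer3 build of the submitters' notes. RLI1 lies on chromosome IV at 626708 to 628534 on the minus strand and DRE2 on chromosome XI at 574934 to 575980 on the minus strand. Each is a single uninterrupted coding exon, of 1827 bp in RLI1 and 1047 bp in DRE2, and neither overlaps another annotated coding gene. The printed windows run from 250 bases before to 50 bases after the first coding base, at chrIV:628485-628784 and chrXI:575931-576230, 5′ to 3′ on the strand of the gene. Capitals mark the start codon.
RLI1 promoter: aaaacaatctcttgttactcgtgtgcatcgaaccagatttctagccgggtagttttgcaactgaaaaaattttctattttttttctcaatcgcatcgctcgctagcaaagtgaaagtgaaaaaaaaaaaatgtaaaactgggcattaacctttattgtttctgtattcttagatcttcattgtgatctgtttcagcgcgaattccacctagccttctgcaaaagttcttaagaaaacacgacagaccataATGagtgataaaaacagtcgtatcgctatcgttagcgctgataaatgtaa
DRE2 promoter: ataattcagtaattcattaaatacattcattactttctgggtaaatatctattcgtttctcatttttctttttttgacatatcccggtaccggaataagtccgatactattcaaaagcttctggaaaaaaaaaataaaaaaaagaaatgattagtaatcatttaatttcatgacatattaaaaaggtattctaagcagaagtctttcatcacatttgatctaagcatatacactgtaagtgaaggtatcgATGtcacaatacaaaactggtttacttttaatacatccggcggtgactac
TGCACCC, the core of sites known for the yeast iron regulators Aft1 and Aft2, was searched on both strands of such windows. It occurred in none of the 9 genes and in 1.30% of 6007 genes (78). CCAAT, the box of the HAP complex that drives respiratory genes, occurred on either strand in CIA1 and MET18 and in 43.3% of the 6007. The shorter CACCC, which lies within TGCACCC, occurred in CFD1 and CIA2 and in 20.0% of the 6007.

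The 300 bases after the stop codon were searched on the transcribed strand for AU-rich motifs of the kind bound by Tis11 (also called Cth2), a protein that promotes decay of messages for iron-using proteins. TATTTATT, written as DNA, occurred there in 7.73% of 6003 genes (464) and in 1 of the 9, RLI1, which has it at 280 and at 291 bases after its stop codon. The shorter TATTTAT, which TATTTATT contains, occurred in 1021 of the 6003 and again in RLI1 alone among the 9. TTATTTAT, which overlaps both, occurred in 6.86% and in none of the 9. The RLI1 stretch is shown because it holds both copies (capitals), at chrIV:626410-626439 on the minus strand. The end of the RLI1 message is not annotated in the reference used, so whether the stretch is transcribed was not determined.
RLI1 after the stop codon: caactacactaTATTTATTctcTATTTATT

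The other 7 genes are also single coding exons that overlap no other annotated coding gene. On the plus strand lie CFD1 (chromosome IX, 349122 to 350003), MET18 (chromosome IX, 113806 to 116904), CIA2 (chromosome VIII, 353625 to 354320) and TAH18 (chromosome XVI, 659182 to 661053). On the minus strand lie NAR1 (chromosome XIV, 198502 to 199977), NBP35 (chromosome VII, 342056 to 343042) and CIA1 (chromosome IV, 1002510 to 1003502).

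Library totals ran from 12076141 to 19021672 counts, with 6046 to 6136 features detected. Replicates of a group were not copies of 1 library, with a chi-square between them per degree of freedom of 102.8 with CQ, 54.1 with the active thione, 45.0 with the inactive thione and 22.8 with DMSO. Transcripts of 4 galactose genes summed to 18012 to 26699 CPM with CQ, 21987 to 27397 with the active thione, 23550 to 28009 with the inactive thione and 21394 to 23421 with DMSO. Markers of alpha mating-type cells (4 genes) summed to 544 to 861 CPM with CQ, 1070 to 1335 with the active thione, 1063 to 1095 with the inactive thione and 1503 to 1844 with DMSO, and all 4 fell with CQ against DMSO. The 5 markers of a mating-type cells summed to 25.3 to 34.3 CPM and the 4 of sporulating diploids to 21.7 to 27.3 CPM over the 8 libraries. SAG1, the alpha agglutinin gene among them, also fell with the active thione against DMSO (log2 fold change -1.23, adjusted p = 0.0168, edgeR), where RLI1 and DRE2 did not pass. SPS4 of the sporulation markers fell with CQ (log2 fold change -1.46, adjusted p = 0.00248, edgeR) and both genes were named after their values were seen. The part of these markers in the results was not tested. In whole cultures, fewer cells of a kind and less RNA per cell cannot be told apart.

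Levels of different genes were compared as CPM per kilobase of coding length. DRE2 had the highest level of the 9 in each group and RLI1 the next, by group means. On that scale DRE2 averaged 133 with CQ, 316 with the active thione, 279 with the inactive thione and 379.7 with DMSO. RLI1 averaged 102 with CQ, 267 with the active thione, 257 with the inactive thione and 342 with DMSO. By group means CIA1 was the third and CFD1 the lowest in each group, CFD1 with 27.6, 27.0, 24.4 and 30.7 per kilobase with CQ, the active thione, the inactive thione and DMSO. In DMSO the levels of CIA1 and TAH18 overlapped between libraries, as did those of NBP35 and MET18 and those of MET18 and CIA2, so the order within these pairs is not fixed. The libraries of CIA1 also overlapped those of RLI1, NBP35 and TAH18 with CQ and those of CIA2 with the active thione. In CQ replicate 1, CIA1 had 111 per kilobase and RLI1 93.2. The place of CIA1 is thus not fixed in these groups, nor is that of RLI1 with CQ. Among 5530 features with a length, RLI1 stood at percentile 72.2 with CQ and 90.4 with DMSO, and DRE2 at 77.8 with CQ and 91.6 with DMSO. The other 7 genes stood between percentiles 32.3 and 68.1 with CQ and between 35.0 and 59.7 with DMSO.

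**Figure D1:**
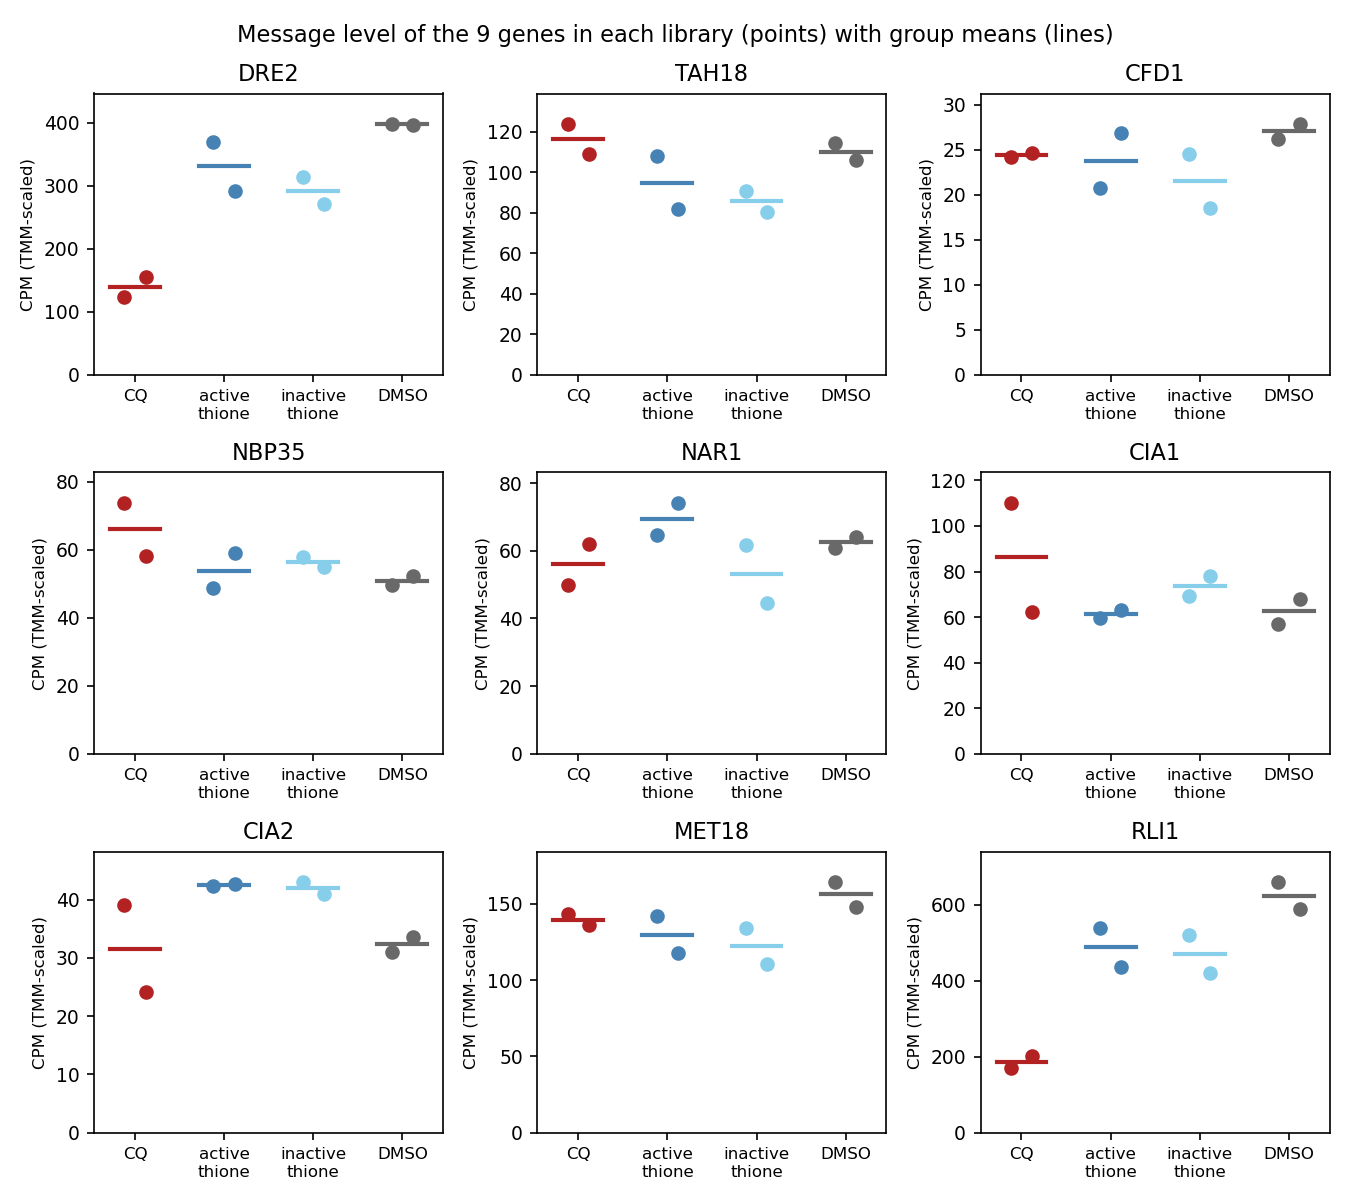
TMM-scaled CPM of each of the 9 genes in each of the 8 libraries, grouped by compound, with 1 point per library and a line at each group mean. The CQ points of RLI1 (170.3 and 203 CPM) and DRE2 (123 and 156 CPM) lie below the points of the other 3 groups.

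Dre2 and Tah18 form the electron-transfer pair, Tah18 being a diflavin reductase that draws electrons from NADPH and Dre2 an iron-sulfur protein that accepts them. DRE2 had 123 and 156 CPM with CQ, 370.1 and 293 with the active thione, 314 and 271 with the inactive thione, and 399 and 396 with DMSO. Both CQ libraries lay below the 6 others, with no overlap. With CQ against DMSO, DRE2 fell by 1.51 on the log2 scale (SE 0.18, 95% interval -1.92 to -1.11, adjusted p = 0.000351, edgeR). TAH18 had 124 and 109 CPM with CQ, 108 and 81.8 with the active thione, 90.6 and 80.5 with the inactive thione, and 114 and 106 with DMSO, so the CQ and DMSO libraries overlapped. Its log2 fold change with CQ against DMSO was 0.08 (95% interval -0.29 to 0.45, adjusted p = 0.793, edgeR). Within a library, the level of DRE2 per length was 1.77 and 2.55 times that of TAH18 with CQ, 6.13 and 6.39 times with the active thione, 6.19 and 6.02 times with the inactive thione, and 6.24 and 6.68 times with DMSO.

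Cfd1 and Nbp35 are related P-loop NTPases that together form the scaffold. NBP35 had 73.9 and 58.2 CPM with CQ, 48.8 and 59.0 with the active thione, 58.1 and 54.8 with the inactive thione, and 49.7 and 52.3 with DMSO. Both CQ libraries lay above both DMSO libraries, with a log2 fold change of 0.37 (95% interval 0.01 to 0.74) that did not pass the test (adjusted p = 0.168, edgeR). When single libraries were left out, that fold change ran from 0.18 to 0.50, highest without CQ replicate 2. CFD1 had 24.1 and 24.6 CPM with CQ, 20.7 and 26.9 with the active thione, 24.5 and 18.6 with the inactive thione, and 26.2 and 27.9 with DMSO. Its CQ libraries lay below its DMSO libraries, with a log2 fold change of -0.15 (95% interval -0.60 to 0.30, adjusted p = 0.661, edgeR). NAR1, whose product links scaffold and targeting complex and resembles iron-only hydrogenases, had 49.8 and 62.2 CPM with CQ, 64.6 and 74.3 with the active thione, 61.7 and 44.7 with the inactive thione, and 60.7 and 64.2 with DMSO. The CQ and DMSO libraries of NAR1 overlapped (log2 fold change -0.16, 95% interval -0.58 to 0.26, adjusted p = 0.615, edgeR).

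In the targeting complex, Cia1 is a WD40-repeat protein that binds Cia2, and Met18 (MMS19 in human) binds clients. CIA1 had 110.2 and 62.4 CPM with CQ, 59.6 and 63.3 with the active thione, 69.3 and 78.2 with the inactive thione, and 57.1 and 67.9 with DMSO. CQ replicate 1 had the highest CIA1 level of the 8 libraries, while CQ replicate 2 lay within the DMSO range. The log2 fold change of CIA1 with CQ against DMSO was 0.47 (95% interval -0.06 to 1.00, adjusted p = 0.226, edgeR). When single libraries were left out, it ran from -0.0071 to 0.79, highest without CQ replicate 2. CIA2 had 39.1 and 24.1 CPM with CQ, 42.4 and 42.6 with the active thione, 43.1 and 41.0 with the inactive thione, and 31.0 and 33.7 with DMSO. Its CQ libraries lay on either side of DMSO (log2 fold change -0.03, 95% interval -0.51 to 0.45, adjusted p = 0.946, edgeR). MET18 had 143 and 136 CPM with CQ, 142 and 118 with the active thione, 134 and 110.3 with the inactive thione, and 165 and 148 with DMSO. Both CQ libraries of MET18 lay below both DMSO libraries, by -0.16 on the log2 scale (95% interval -0.51 to 0.19, adjusted p = 0.530, edgeR).

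RLI1, the client, had 170.3 and 203 CPM with CQ, 539.8 and 436 with the active thione, 521 and 419.6 with the inactive thione, and 661 and 587 with DMSO. The means were 187 ± 23.1 CPM with CQ and 624 ± 51.8 with DMSO (SD, n = 2 each), and both CQ libraries lay below the 6 others. With CQ against DMSO, RLI1 fell by 1.74 on the log2 scale (SE 0.19, 95% interval -2.16 to -1.32, adjusted p = 0.000192, edgeR). Both RLI1 and DRE2 passed the test in 13 of 13 alternative analyses. When single libraries were left out, RLI1 ran from -1.91 to -1.63 and DRE2 from -1.73 to -1.36. The RLI1 to DRE2 ratio of levels per length was 0.795 and 0.748 with CQ, 0.836 and 0.854 with the active thione, 0.951 and 0.887 with the inactive thione, and 0.949 and 0.850 with DMSO. Both CQ libraries had the lowest values of that ratio, by a small margin. The RLI1 to CIA1 ratio was 0.840 and 1.77 with CQ, 4.92 and 3.74 with the active thione, 4.09 and 2.92 with the inactive thione, and 6.29 and 4.70 with DMSO, so the CQ libraries lay well below the rest.

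**Figure D2:**
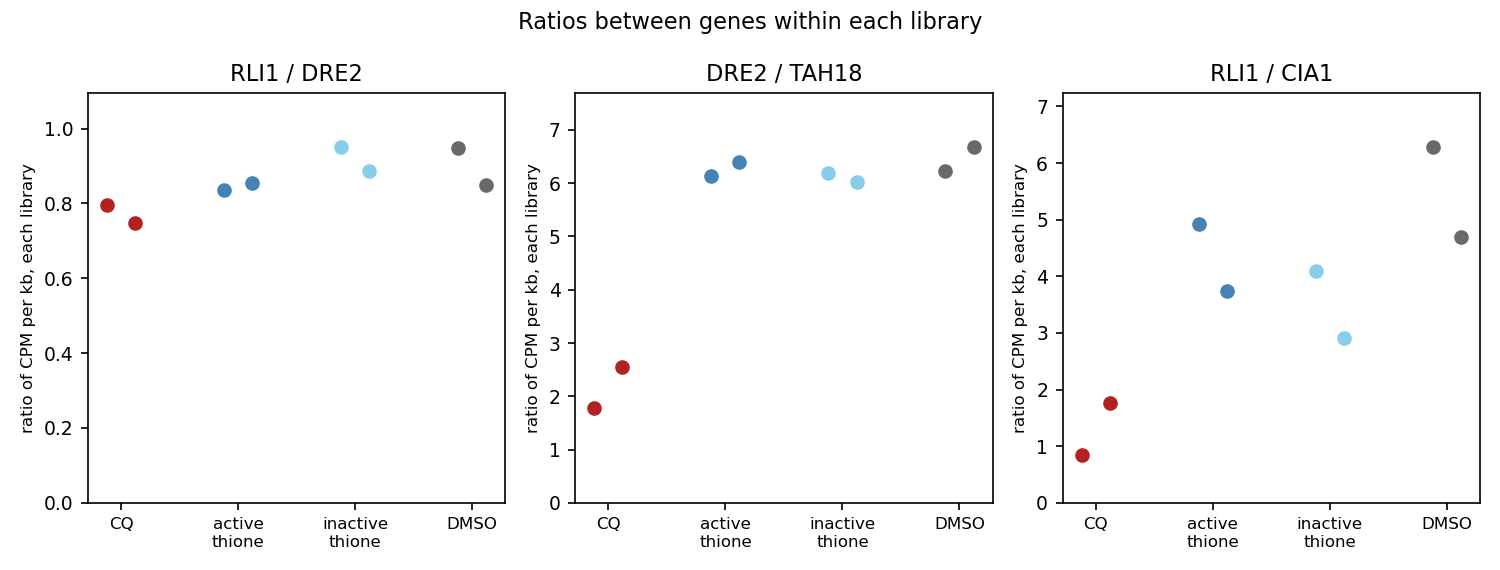
Ratios of CPM per kilobase between RLI1 and DRE2, DRE2 and TAH18, and RLI1 and CIA1 within each library, 1 point per library, with each axis starting at 0. DRE2 to TAH18 and RLI1 to CIA1 are lowest in the 2 CQ libraries, at most 2.55 and 1.77, while RLI1 to DRE2 runs from 0.748 to 0.951 over all 8 libraries.

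Over the whole table, CQ against DMSO called 758 of 5696 features (13.3%) at an adjusted p under 0.05 (edgeR), of which 280 were higher (4.92%) and 478 were lower (8.39%). Of the 9 genes, 0 rose, 2 fell and 7 did not pass. DESeq2 also called 2 of the 9, and 3 had an unadjusted p under 0.05 in edgeR, NBP35 being the addition. That p was reached by 28.3% of all tested features (1614), so the count of 3 is near the background. The CQ and DMSO libraries did not overlap in 5 of the 9, against 57.1% of all tested features, so that count is near the background. The median log2 fold change was -0.15 over the 9 genes and 0.03 over all features tested.

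With the active thione against DMSO, 0 of the 9 genes passed the test in edgeR, where 1.37% of features (78) did. DESeq2 also called 0, and 0 of the 9 had an unadjusted p under 0.05, against 13.8% of features. RLI1 had a log2 fold change of -0.36 (95% interval -0.76 to 0.05, adjusted p = 0.428, edgeR) and DRE2 of -0.26 (95% interval -0.66 to 0.13, adjusted p = 0.527, edgeR), and in both genes the treated libraries lay below DMSO. CIA2 was the highest of the 9, at 0.39 (95% interval -0.08 to 0.87, adjusted p = 0.447, edgeR). The groups did not overlap in 5 of the 9 genes, against 53.1% of features. The median was -0.18 over the 9 genes and 0.03 over all features.

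With the inactive thione against DMSO, 0 of the 9 passed in edgeR, where 0.158% of features (9) did, and DESeq2 called 0. DRE2, RLI1 and MET18 had an unadjusted p under 0.05, as did 13.0% of features. DRE2 had a log2 fold change of -0.44 (95% interval -0.84 to -0.05, adjusted p = 0.373, edgeR), RLI1 of -0.41 (95% interval -0.81 to -0.00089, adjusted p = 0.383, edgeR) and MET18 of -0.35 (95% interval -0.71 to -0.0031, adjusted p = 0.382, edgeR). TAH18 stood at -0.36 and CIA2 at 0.38. The groups did not overlap in 8 of the 9 genes, against 58.5% of features, and the median was -0.33 over the 9 genes and 0.03 over all features.

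The thiones form the 1 pair of related compounds given at the same dose and time. The active thione was set directly against the inactive one, in the fit of all 8 libraries, and 0 of the 9 genes passed in edgeR (0 at an unadjusted p under 0.05 and 0 in DESeq2), where 0.123% of features passed (7) and 3.70% had an unadjusted p under 0.05. RLI1 differed by 0.05 on the log2 scale (95% interval -0.35 to 0.46) and DRE2 by 0.18 (95% interval -0.21 to 0.57). The widest difference was in NAR1, 0.38 (95% interval -0.03 to 0.80), whose active-thione libraries both lay above its inactive-thione libraries, and the next was in CIA1, -0.26 (95% interval -0.79 to 0.27). The other 5 genes ran from -0.07 in NBP35 to 0.15 in TAH18. The adjusted p was 0.999652 for each of the 9 (edgeR), and the intervals leave room for differences of the sizes given. The groups did not overlap in 2 of the 9, against 30.7% of features.

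CQ was compared directly with each thione, at different doses, so no statement on potency follows, and both comparisons share the CQ libraries with that against DMSO. Against the active thione, 12.4% of features were lower past the threshold in edgeR. RLI1 fell by 1.39 on the log2 scale (SE 0.18, adjusted p = 0.000681, edgeR) and DRE2 fell by 1.25 (SE 0.18, adjusted p = 0.000992, edgeR). Against the inactive thione, 10.1% of features were lower past the threshold. RLI1 fell by 1.33 (SE 0.18, adjusted p = 0.000955, edgeR) and DRE2 fell by 1.07 (SE 0.18, adjusted p = 0.00290, edgeR). These were 2 of the 9 in each comparison, and the other 7 did not pass. TAH18 was closest, at 0.44 with CQ against the inactive thione (95% interval 0.07 to 0.82, adjusted p = 0.121, edgeR). CIA2 stood at -0.42 with CQ against the active thione and at -0.41 against the inactive one. With single libraries left out, these values ran from -0.80 to -0.13 and from -0.78 to -0.12, both lowest without CQ replicate 1. CIA1 ran from 0.041 to 0.84 against the active thione and from -0.22 to 0.57 against the inactive one, both highest without CQ replicate 2.

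**Figure D3:**
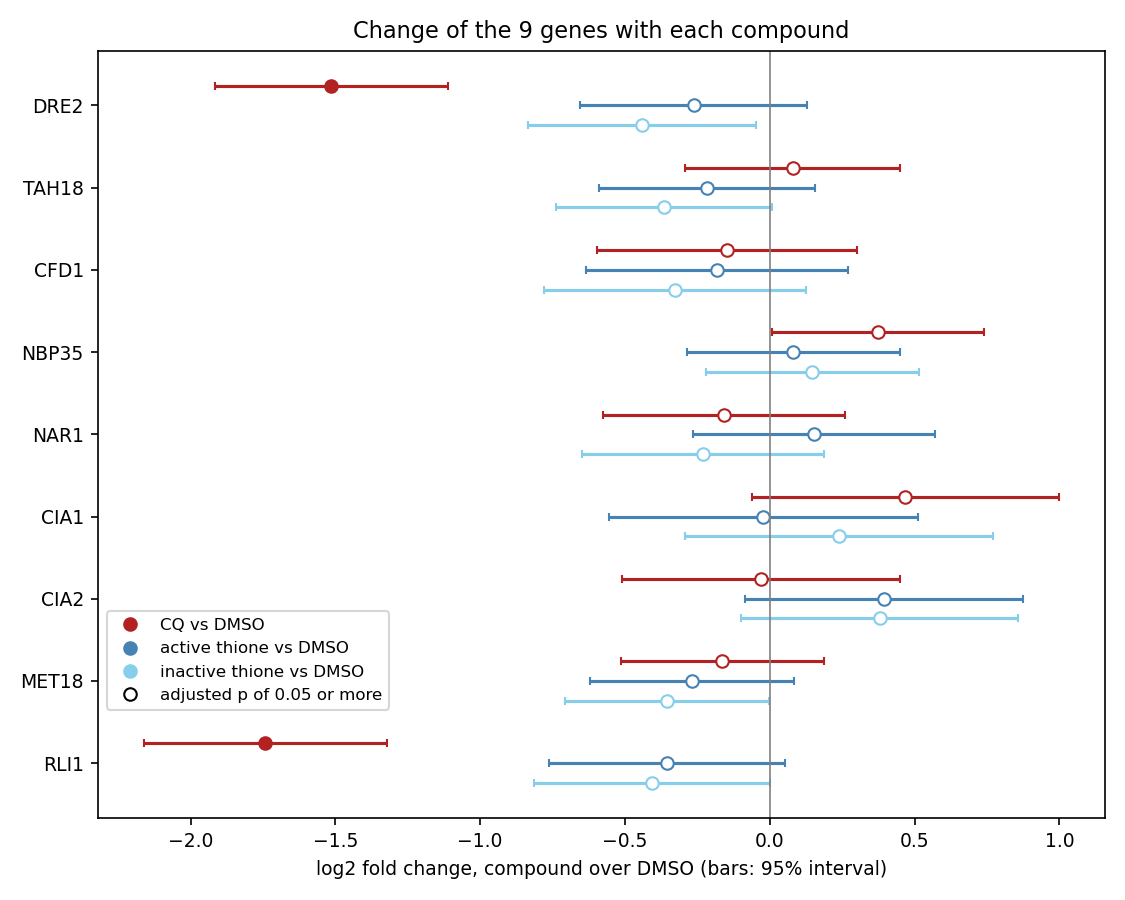
Log2 fold changes of the 9 genes, with 95% intervals from edgeR, for CQ, the active thione and the inactive thione over DMSO, filled where the adjusted p is under 0.05. RLI1 (-1.74) and DRE2 (-1.51) with CQ are the filled points, and the other points lie between -0.44 and 0.47.

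Helpers of the cytosolic machinery and the other proteins it serves give the setting of the 9 genes. Of 7 helpers and adaptors, 0 rose and 1 fell with CQ against DMSO in edgeR (2 at an unadjusted p under 0.05, near the 28.3% of all features, and 1 in DESeq2). The median log2 fold change of the 7 was 0.28, against 0.03 over all features, of which 8.39% fell and 4.92% rose. GRX4, the gene of a cytosolic glutaredoxin that binds iron-sulfur clusters, had 6.63 and 9.52 CPM with CQ, 35.4 and 29.4 with the active thione, 38.1 and 34.5 with the inactive thione, and 46.3 and 42.0 with DMSO, and fell by 2.46 (SE 0.21, adjusted p = 4.41e-05, edgeR). YAE1, which with Lto1 forms the adaptor that brings Rli1 to the targeting complex, had 15.0 and 10.1 CPM with CQ and 9.23 and 7.73 with DMSO, a log2 fold change of 0.56 that did not pass (adjusted p = 0.174, edgeR). LTO1 stood at 0.28 (adjusted p = 0.357, edgeR) and is named because of that role. FRA1, whose product acts with Grx3 and Grx4 in iron sensing, stood at 0.43 (adjusted p = 0.213, edgeR).

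Of 16 genes of other cytosolic and nuclear iron-sulfur proteins, 5 fell with CQ against DMSO, 0 rose and 11 stayed short of the threshold (6 at an unadjusted p under 0.05, 5 in DESeq2). The median log2 fold change of the 16 was -0.25. Over all tested features, 8.39% fell, 4.92% rose and 28.3% had an unadjusted p under 0.05. LEU1, an isomerase of leucine synthesis, had 103 and 90.6 CPM with CQ and 1956 and 1898 with DMSO and fell by 4.32 (SE 0.18, adjusted p = 4.55e-07, edgeR). GLT1, glutamate synthase, fell by 2.59 (SE 0.15, adjusted p = 2.76e-06, edgeR) and MET5, a subunit of sulfite reductase, fell by 1.89 (SE 0.14, adjusted p = 1.46e-05, edgeR). DPH2, of diphthamide synthesis on elongation factor 2, fell by 1.92 (SE 0.17, adjusted p = 5.99e-05, edgeR). ELP3, of the Elongator complex that modifies tRNA, was the fifth of them and fell by 1.08 (SE 0.19, adjusted p = 0.00385, edgeR). It was named after its value was seen. RLI1 at -1.74 thus stood among clients that fell and clients that did not pass.

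Of 20 genes of the mitochondrial assembly and export machinery, 6 fell, 2 rose and 12 stayed short of the threshold (11 at an unadjusted p under 0.05, 9 in DESeq2). Their median was -0.24. The shares over all tested features were 8.39% lower, 4.92% higher and 28.3% at an unadjusted p under 0.05. ISA1, which acts in the late steps that make 4Fe-4S clusters, had 11.9 and 8.05 CPM with CQ and 69.5 and 68.7 with DMSO and fell by 2.78 (SE 0.19, adjusted p = 1.12e-05, edgeR). YFH1, yeast frataxin, fell by 2.32 (SE 0.18, adjusted p = 2.10e-05, edgeR) and GRX5, a mitochondrial glutaredoxin, fell by 1.86 (SE 0.16, adjusted p = 3.56e-05, edgeR). The 2 that rose, named after their values were seen, encode the mitochondrial scaffold on which clusters form. ISU1 rose by 0.80 (adjusted p = 0.0208, edgeR), and its adjusted p was 0.0640 without CQ replicate 2, 0.117 without DMSO replicate 1 and 0.138 without DMSO replicate 2. ISU2 rose by 1.20 (adjusted p = 0.0375, edgeR), and its adjusted p was 0.0683 in a fit of the CQ and DMSO libraries alone, 0.119 without CQ replicate 2, 0.109 without DMSO replicate 1 and 0.204 without DMSO replicate 2.

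Of 8 genes of Rli1's partners in ribosome recycling and translation termination, 2 rose, 0 fell and 6 stayed short of the threshold in edgeR (3 at an unadjusted p under 0.05, 3 in DESeq2), and their median was 0.24. Of all tested features, 4.92% rose and 28.3% had an unadjusted p under 0.05. HCR1, an initiation factor 3 subunit known to act with Rli1, had 686 and 524 CPM with CQ and 308 and 341 with DMSO and rose by 0.90 (SE 0.18, adjusted p = 0.0103, edgeR). Its adjusted p was 0.0553 without CQ replicate 1, 0.118 without DMSO replicate 1 and 0.0579 without DMSO replicate 2. HBS1, of the Dom34-Hbs1 pair that frees stalled ribosomes, rose by 0.49 (SE 0.14, adjusted p = 0.0495, edgeR), a call kept in 3 of 13 alternative analyses. Leaving out any 1 library other than CQ replicate 2 gave HBS1 an adjusted p of 0.0707 to 0.301 (edgeR). TMA22, of ribosome recycling, stood at 0.62 (adjusted p = 0.0691, edgeR). Among 5 other ABC proteins of translation, 0 passed in edgeR (1 at an unadjusted p under 0.05 and 1 in DESeq2), with a median of 0.02. NEW1 had 2182 and 2084 CPM with CQ and 1470 and 1404 with DMSO, a log2 fold change of 0.57 (adjusted p = 0.0584, edgeR), HEF3 stood at 0.14 and GCN20 at -0.11.

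**Figure D4:**
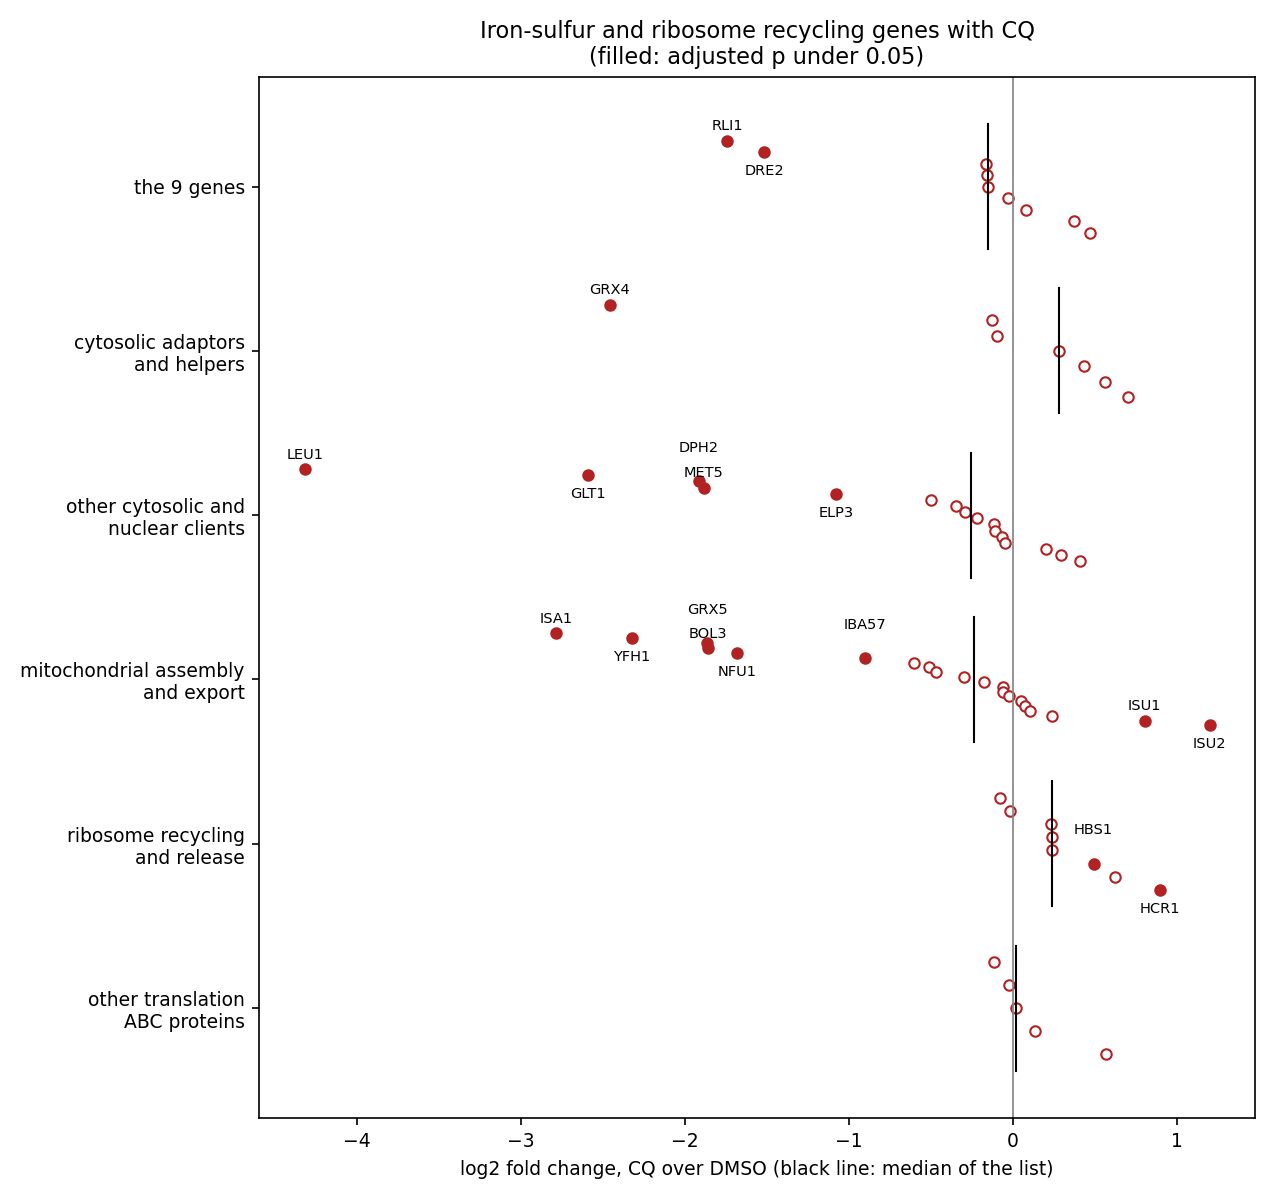
Log2 fold changes with CQ over DMSO of the 9 genes and of the 5 lists around them, 1 point per gene, filled where the adjusted p is under 0.05 in edgeR, with a line at each list's median. The lists of other clients and of mitochondrial assembly hold falls down to -4.32 in LEU1 and -2.78 in ISA1 beside many open points near 0.

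With the thiones, 0 of the 56 genes on these 5 lists passed in edgeR against DMSO, for the active thione (5 at an unadjusted p under 0.05, 1 in DESeq2) and for the inactive one (6 and 0), and 0 passed between the thiones (2 and 0). In the same order, 13.8%, 13.0% and 3.70% of all features had an unadjusted p under 0.05. Pooled over the 5 lists, the counts at that p are thus not above the background. With the active thione against DMSO, the mitochondrial list held 4 of them among its 20 genes, and the 1 DESeq2 call. Its median there was 0.25, against 0.03 over all features. The helper list held 1 among its 7 genes. TIS11, the gene of the decay factor named above and a target of the iron regulators, had 263 and 281 CPM with CQ, 9.80 and 14.8 with the active thione, 1.50 and 2.53 with the inactive thione, and 1.84 and 2.42 with DMSO. It rose with CQ by 7.01 (SE 0.29, adjusted p = 4.55e-07, edgeR) and with the active thione by 2.56 (SE 0.28, adjusted p = 0.00480, edgeR) against DMSO, and its adjusted p with the active thione was 0.0832 without DMSO replicate 1. Against the inactive thione it rose with the active one by 2.61 (SE 0.29, adjusted p = 0.00499, edgeR), with an adjusted p of 0.0616 in a fit of these groups alone, 0.0557 without active replicate 2 and 0.100 without inactive replicate 1. The iron uptake genes FET3 and FTR1 rose with CQ by 3.65 and 2.97 (adjusted p = 7.18e-07 and 2.29e-06, edgeR). With the active thione against DMSO they stood at 0.54 and 0.08 and did not pass (adjusted p = 0.149 and 0.853, edgeR). FET3 had an unadjusted p of 0.00517 there (edgeR). Its active thione libraries (390 and 426 CPM) lay above its DMSO libraries (285 and 276 CPM). With the active thione against the inactive one, FET3 stood at 0.80 (adjusted p = 0.180, edgeR) and FTR1 at 0.33, and neither passed. Of TIS11, FET3 and FTR1, DESeq2 called 2 with the active thione against DMSO and 2 against the inactive thione. In the active thione libraries, where TIS11 was above DMSO, RLI1 stood at -0.36 and DRE2 at -0.26 and neither passed. A link between TIS11 and the levels of RLI1 and DRE2 was not tested.

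Across the 8 libraries, the log2 levels of RLI1 and DRE2 had a Pearson correlation of 0.993. Among 5063 tested features of sufficient level, those most like RLI1 were MDV1 (0.997), ERG5 (0.995), DPH2 (0.995), CYB5 (0.994) and DRE2. Most like DRE2 was also MDV1 (0.994). TAH18 was most like RQC2 (0.984), NBP35 most like RPC37 (0.969), CFD1 most like PFD1 (0.911) and NAR1 most like RPL43B (0.948). CIA1 was most like SUM1 (0.996), CIA2 most like MRPL38 (0.960) and MET18 most like RRP5 (0.995). These values describe 8 points that share the 4 groups, and the CQ libraries set much of the spread for RLI1 and DRE2.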

How the data were processed

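RNA from 8 yeast libraries was sequenced. Hot acid phenol extraction gave total RNA, and the PrepX kit was used for the libraries, per the labels' protocols. The authors deposited raw read counts per feature and a normalized signal, the counts divided by 1 size factor per library. That deposited signal was used only as a check, and its factors equalled median-of-ratios factors recomputed from the counts to within 5.34e-05. The sacCer3 build, DESeq, HTSeq, TopHat and TopHat2 2.1.1 are listed per the submitters' processing notes. Not given in the sources used here are the annotation, the counting mode and the use of strand, so antisense reads may not be separable.

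The members and the gene lists were chosen with earlier results of these data known. Counts were tested with edgeR 4.0.16 (R 4.3.3; quasi-likelihood, two-sided, TMM scaling, filterByExpr, all 8 libraries in 1 fit), with Benjamini-Hochberg adjustment over 5696 features at 0.05. CPM values are TMM-scaled. Likeness used log2 CPM with a prior count of 2 and a mean log2 CPM of at least 3. Names came from RefSeq R64, which matched 6045 of 7122 features, and 4 empty lines were left out. Alternatives were DESeq2 1.42.0, its size factors in edgeR, no filter, the compared groups alone, the replicate number as a block, and leaving out each library. Named genes were the 9 members, the 3 with the smallest p for CQ against DMSO in each list, any listed gene called with a thione, TIS11, FET3, FTR1, PDR1, PDR3, and the genes most like each member (5 for RLI1). Replicates are labelled biological, but nothing more is given on their origin.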

Additional observations from a re-analysis of the deposited data

How the results depend on the processing

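RLI1 and DRE2 kept their fall with CQ, past the threshold, against DMSO and against each thione in all 13 alternatives. With CQ against DMSO and the replicate block, RLI1 stood at -1.73 (adjusted p = 0.000165, edgeR) and DRE2 at -1.51 (adjusted p = 0.000438, edgeR). The labels do not say that a replicate number marks a shared culture or day. Deviations of same-numbered libraries correlated at 0.33 between the thiones, 0.39 and 0.43 between the active and inactive thione and DMSO, and -0.15 to 0.21 between CQ and the other groups. A pairing was thus not established over all groups, and the positive values among the thiones and DMSO are a hint from the data, not the design. The block raised the calls to 952 for CQ, 174 for the active and 54 for the inactive thione against DMSO, to 13 between the thiones, and to 1171 and 985 for CQ against the active and inactive thione. Under the block TAH18 passed with CQ against the inactive thione (0.44, adjusted p = 0.0482, edgeR), and NEW1 with CQ against DMSO (adjusted p = 0.0230). The active thione against DMSO gave 133 calls in a fit of those groups alone and 183 with DESeq2, which gave 81 for the inactive thione and 25 between the thiones. Leaving out single libraries gave 367 to 1419 calls with CQ, 4 to 108 with the active and 1 to 18 with the inactive thione against DMSO, 3 to 10 between the thiones, and 585 to 1593 and 458 to 1126 for CQ against the active and inactive thione. The cause was not tested.

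Some values that did not pass changed sign when 1 library was left out. With CQ against DMSO, TAH18 ran from -0.026 to 0.14, CIA1 from -0.0071 to 0.79, CIA2 from -0.43 to 0.24 and GCN20 from -0.23 to 0.0071. With the active thione against DMSO, CIA1 ran from -0.15 to 0.11 and NBP35 from -0.062 to 0.21. Between the thiones, NBP35 ran from -0.21 to 0.062, DRE2 from -0.00023 to 0.34, TAH18 from -0.065 to 0.33, MET18 from -0.059 to 0.23, RLI1 from -0.11 to 0.22, CFD1 from -0.058 to 0.36 and CIA2 from -0.031 to 0.049. With CQ against the active thione, CFD1 ran from -0.14 to 0.24 and MET18 from -0.025 to 0.25, and against the inactive thione CIA1 from -0.22 to 0.57, NAR1 from -0.14 to 0.32 and CFD1 from -0.011 to 0.39. IBA57 of the mitochondrial list, named for its lost calls, fell with CQ (-0.90, adjusted p = 0.0274, edgeR) and had an adjusted p of 0.0666 in the groups alone, 0.111 without CQ replicate 1, 0.0532 and 0.0521 without active replicates 1 and 2, 0.133 without DMSO replicate 1 and 0.108 without DMSO replicate 2. With CQ against DMSO, calls were gained in DESeq2 by TMA22 (adjusted p = 0.0336) and NEW1 (adjusted p = 0.0127). Besides those under the block, the other gained calls came from fits that left 1 CQ library, so only fold changes are given. Without CQ replicate 2 they were TMA22 (0.85), YAE1 (0.79), CIA1 (0.79) and NBP35 (0.50) against DMSO. In that fit CIA1 also gained calls against the active (0.84) and inactive thione (0.57). Without CQ replicate 1, CIA2 gained them against the active (-0.80) and inactive thione (-0.78). Over the alternatives with CQ, 1 helper fell and 0 to 2 rose, 5 to 6 clients fell, 5 to 8 mitochondrial genes fell and 0 to 2 rose, and 0 to 3 recycling genes rose. With 2 libraries per group, a value short of the threshold does not show that the genes stayed the same.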
